A study of Homo sapiens with 6 samples.

Results

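The general transcription factor TFIID and the coactivator Mediator are the large complexes between a gene's activators and RNA polymerase II, and their genes were followed here in liver cancer cells with less of the splicing factor SLU7. The set held 54 genes of the 60607 quantified: every gene with a protein-coding transcript that encodes TBP, a TBP-associated factor (TAF) or a numbered Mediator subunit (MED), leaving out TAF15, an RNA-binding protein named as a TAF. Of these, 24 were TBP and TAF genes and 30 were Mediator genes, and together they had 483 of the 234326 transcripts. PLC/PRF/5, an established human hepatocellular carcinoma line, was transfected with siRNAs against SLU7 (siSlu7, 3 knockdown libraries) or with siGL2, an irrelevant siRNA (3 control libraries), and RNA was taken after 48 h. SLU7 is a splicing factor of the step that joins exons, and the series title states the question as the effect of losing it on mRNA transcripts. Both groups are the same single line, and the labels name no engineered genetic change. The labels call the samples triplicates and no more, so the p-values below reflect the spread among these 6 libraries alone, which may be technical.

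TFIID is TBP, which binds the TATA element, with a shell of TAFs, several of which pair through histone folds and several of which touch core promoter DNA. TAF5L and TAF6L serve the acetyltransferase complex SAGA instead, and TAF1A, TAF1B, TAF1C and TAF1D form SL1 with TBP, the factor that starts ribosomal RNA synthesis by RNA polymerase I. Mediator has a head and a middle that meet the polymerase, a tail that meets activators, MED14 as backbone, and a detachable kinase module. Most of the genes are expressed in nearly every cell, the liver included.

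Libraries held 7736584 to 8693977 estimated counts in the controls and 5191452 to 6315740 in the knockdowns. Mitochondrial ribosomal RNA made up 16.8% to 24.1% of control and 29.9% to 35.3% of knockdown counts, and 7SL RNA 15.8% to 23.5% and 8.09% to 10.6%. The first control and the last knockdown library (replicates 1 and 3) deviated from their groups in the same way across genes (r = 0.44 between the deviations), and these 2 are called the libraries that stood apart. Control replicate 3 and knockdown replicate 1 came next, at r = 0.38. Deviations cancel out within a group, so these r are not independent. In bulk RNA fewer cells of a kind and less RNA per cell cannot be told apart. SLU7 was at 20.9, 17.1 and 18.4 CPM (counts scaled to a common library size) in the controls and at 9.38, 8.29 and 10.5 CPM in the knockdowns, without overlap (log2 fold change -1.002, SE 0.18, adjusted p = 0.0139, edgeR). With transcript length offsets SLU7 was at -0.64 (adjusted p = 0.117) and the call was lost, and on log2(TPM + 1) it was at -0.06 (limma adjusted p = 0.868), where the median gene was at 0.35, so the fall of the target did not pass on that scale. Over the alternatives its adjusted p ran from 0.00186 to 0.868. Hepatocyte genes marked the line, with APOB at 11676 to 13812 CPM, while ALB was at 21.0 to 25.8 CPM and AFP at 0.55 to 1.38 CPM. Of 9 markers of immune, endothelial and fibroblast cells 6 were too low to test, and the 9 summed to 17.2, 27.1 and 24.2 CPM in the controls and 14.5, 15.3 and 18.3 CPM in the knockdowns. COL3A1 was at 0 in every library, PDGFRB was lower in the knockdown (13.1, 22.1 and 19.3 against 8.15, 9.59 and 11.4 CPM) and PTPRC was higher (0.38, 0.40 and 0.51 against 1.85, 2.03 and 1.49 CPM). Their part in the results was not tested.

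Of the 51 members with enough reads to test, 9 were higher and 1 was lower in the knockdown: TAF1D, MED10, TAF1A, MED4, MED17, TAF7, TAF4, MED13 and TAF2 rose, and TAF6 fell (edgeR quasi-likelihood test, Benjamini-Hochberg adjusted p under 0.05 over all 17109 genes tested). Over all genes tested, 5.93% were called higher and 7.93% lower, 13.9% in all. The median log2 fold change of the 51 members was 0.15, against -0.0068 over all genes tested, and 33 of the 51 were above 0, against 49.6% of all genes. TAF1L, TAF7L and MED12L, the first a retrogene and the others tissue-restricted paralogs, had too few reads to test, with 0.00 to 1.85 CPM across libraries. The values of the 2 groups did not overlap in 21 members, 17 with all knockdowns higher (17.8% of all genes tested) and 4 with all lower (18.8%). Just inside the threshold were TAF4 and TAF2 (adjusted p = 0.0407 and 0.0443), and just outside TAF5L and TAF1 (0.0554 and 0.0633).

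With a library left out the fold changes of the 10 called genes kept their sign, while the number of calls varied. The log2 fold change ran from 0.98 to 1.23 for MED17, from 0.92 to 1.30 for TAF7, from 0.55 to 0.67 for MED13 and from -0.83 to -0.64 for TAF6. Without knockdown replicate 2 no member passed (0 of all 18511 genes tested, although 16 members had an unadjusted p under 0.05). Without knockdown replicate 1 or 3 or control replicate 2 or 3 between 1 and 3 members passed, all of them higher. Over all genes 162 of 18584, 433 of 18505, 175 of 17467 and 224 of 17429 were higher in those fits, in that order. The genes called lower there numbered 175, 610, 281 and 400. Without control replicate 1, 12 were higher and 3 lower, where 11.7% of all genes were higher and 13.6% lower. Without both libraries that stood apart 13 were higher and 4 lower, where 14.1% of all genes were higher and 15.7% lower. The 10 calls made with all libraries held in that fit, and TAF1, TAF5L, TAF13, TAF1B, MED12, MED16 and MED11 joined them. On log2(TPM + 1), where TPM is the length-scaled share of a transcript, 15 members were higher and none lower by limma (9 and 1 in the count test; 24 members had an unadjusted p under 0.05), where 17.4% of all genes were higher and 0.877% lower, and the higher share of all calls was 95.2% in place of 42.8%. The median of all genes had a log2 fold change of 0.35 on that scale, and the median member stood 0.24 above it.

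**Figure D1:**
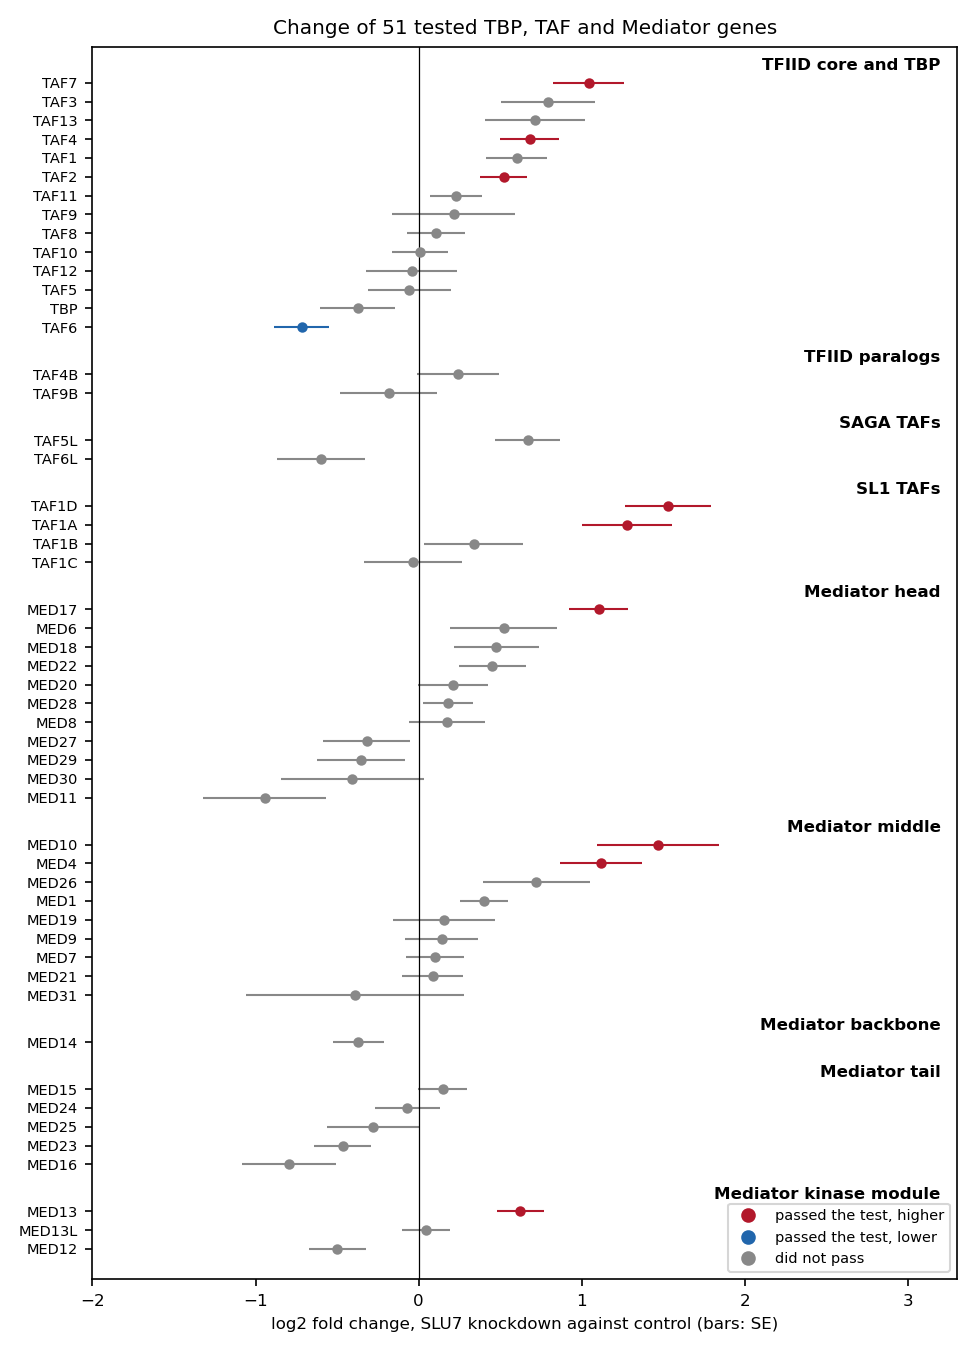
The log2 fold change of each of the 51 tested genes (points, with the SE as bars) by complex and module, SLU7 knockdown against control. Red points passed the test higher (9 genes), the blue point lower (TAF6), and the grey points did not pass. TAF6 lay at 0.44 on log2(TPM + 1), 0.08 above the median gene, and 48 of the 51 genes were above 0 there.

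Among the 14 genes of TBP and the TFIID core, TAF7, TAF4 and TAF2 rose and TAF6 fell, and the median log2 fold change was 0.22. TAF7 (ENSG00000178913.8, chromosome 5, 141260225 to 141320821, minus strand, GRCh38) encodes the subunit that holds back TAF1. It was at 21.4, 13.4 and 13.5 CPM in the controls and 32.9, 29.5 and 37.2 CPM in the knockdowns. Every knockdown library was above every control, a log2 fold change of 1.04 (SE 0.22, adjusted p = 0.0199, edgeR). Its main transcript has 1 exon and so needs no splicing. TAF4, a scaffold of the complex, was at 10.9, 11.7 and 10.5 CPM in the controls and 15.1, 20.5 and 17.6 CPM in the knockdowns, without overlap (0.68, SE 0.18, adjusted p = 0.0407, edgeR). TAF2, which contacts the initiator element, was at 39.7, 43.1 and 37.1 against 51.8, 59.5 and 60.9 CPM (0.52, SE 0.14, adjusted p = 0.0443, edgeR).

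TAF6, the histone-fold partner of TAF9 (ENSG00000106290.15, chromosome 7, 100107070 to 100119841, minus strand), was at 24.8, 27.6 and 21.3 CPM in the controls and 13.997, 14.6 and 16.3 CPM in the knockdowns. The highest knockdown library stayed below the lowest control (-0.72, SE 0.17, adjusted p = 0.0287, edgeR). The fall shrank to -0.04 (adjusted p = 0.942) with offsets for the average transcript length, and to -0.39 (adjusted p = 0.147) with offsets for GC content and length. On log2(TPM + 1) the value was 0.44 (limma adjusted p = 0.285), 0.08 above the median gene.

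TAF1, TBP and TAF10 did not pass. TAF1, the largest subunit, was at 95.7, 60.1 and 81.3 CPM in the controls and 119.4, 115.2 and 125.2 CPM in the knockdowns, a log2 fold change of 0.60 (SE 0.19, adjusted p = 0.0633, edgeR). The groups did not overlap, and without control replicate 1 the adjusted p was 0.0125. TBP itself was at 17.2, 27.3 and 26.6 CPM against 22.5, 16.4 and 15.9 CPM, which overlap (-0.37, SE 0.23, adjusted p = 0.2998, edgeR; on log2(TPM + 1) 0.02). TAF10, shared by TFIID and SAGA, was at 19.6, 26.9 and 22.1 CPM in the controls and 22.8, 22.1 and 24.1 CPM in the knockdowns. Its log2 fold change was 0.0079 (SE 0.17, adjusted p = 0.981, edgeR), and it was below 0 in several of the alternatives, with transcript length offsets at -0.47. The other core genes TAF3, TAF5, TAF8, TAF9, TAF11, TAF12 and TAF13 lay between -0.06 and 0.79. TAF3 (0.79) and TAF13 (0.71) were the highest of them, and TAF13 had control replicate 1 at 20.1 CPM inside the knockdown range.

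In SL1 2 of 4 genes rose, TAF1D and TAF1A. TAF1D (ENSG00000166012.17, chromosome 11, 93729948 to 93784391, minus strand) was at 111.8, 104.6 and 127.9 CPM in the controls and 463.0, 308.2 and 220.8 CPM in the knockdowns. The lowest knockdown was well above the highest control, and the knockdowns spread widely among themselves (2.88-fold, log2 fold change 1.53, SE 0.26, adjusted p = 0.0120, edgeR). All 54 members summed to 1344, 1314 and 1314 CPM in the controls and 1810, 1657 and 1678 CPM in the knockdowns, and without TAF1D to 1233, 1210 and 1186 against 1347, 1349 and 1457 CPM. TAF1A was at 5.15, 3.08 and 3.96 CPM in the controls and 7.54, 10.5 and 11.8 CPM in the knockdowns, without overlap (1.28, SE 0.28, adjusted p = 0.0217, edgeR). TAF1B (0.34) and TAF1C (-0.04) did not pass and their groups overlapped. Of the SAGA forms, TAF5L was at 21.9, 19.6 and 18.4 CPM against 30.5, 24.9 and 39.8 CPM (0.67, SE 0.20), and TAF6L was at -0.60. The tested paralogs TAF4B (0.24) and TAF9B (-0.18) overlapped between groups.

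In Mediator 4 of 29 tested genes rose and none fell, with a median of 0.14. MED17, the architectural subunit of the head (ENSG00000042429.12, chromosome 11, 93784227 to 93814963, plus strand), was at 23.6, 28.0 and 33.7 CPM in the controls and 71.2, 57.0 and 55.1 CPM in the knockdowns. No library of either group entered the range of the other (2.15-fold, log2 fold change 1.10, SE 0.18, adjusted p = 0.0106, edgeR), the smallest p of the set. The other 10 head genes did not pass, from MED11 at -0.94 to MED6 at 0.52.

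In the middle module 2 of 9 genes rose and 8 of 9 were above 0. MED4 was at 6.41, 4.96 and 3.58 CPM in the controls and 11.7, 9.59 and 11.2 CPM in the knockdowns (1.12, SE 0.25, adjusted p = 0.0247, edgeR). MED10 was at 1.51, 1.88 and 1.92 CPM in the controls and 4.77, 7.004 and 2.99 CPM in the knockdowns (1.47, SE 0.37, adjusted p = 0.0346, edgeR). Neither gene overlapped between groups, but MED10 was among the scarcest members, with 12 to 38 reads a library. MED1, the contact of nuclear receptors, was at 48.7, 41.1 and 52.8 against 63.5, 61.7 and 63.2 CPM, a non-overlapping difference that did not pass (0.40, SE 0.15, adjusted p = 0.0978, edgeR). MED26, which recruits elongation factors, was at 3.27, 6.43 and 4.22 against 7.69, 5.35 and 9.90 CPM, which overlap (0.72, SE 0.33). With offsets for GC content and length MED26 was at 1.28 (adjusted p = 0.0246, edgeR).

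In the kinase module 1 of 3 tested genes rose. MED13, which joins the module to the rest of Mediator (chromosome 17, 61942605 to 62065282, minus strand), was at 79.9, 78.1 and 87.7 CPM in the controls and 117.8, 121.8 and 139.0 CPM in the knockdowns (0.62, SE 0.15, adjusted p = 0.0273, edgeR). Its paralog MED13L, one of the most abundant members, was at 164.6, 176.5 and 172.9 against 180.7, 186.5 and 162.2 CPM, overlapping (0.04). MED12, the activator of the kinase CDK8, was at 72.0, 106.9 and 92.3 CPM in the controls and 63.7, 60.6 and 67.6 CPM in the knockdowns. It did not pass with all libraries (-0.50, SE 0.17, adjusted p = 0.0862, edgeR), was called without control replicate 1 (adjusted p = 0.0122), and was at 0.40 on log2(TPM + 1), 0.05 above the median gene. Over the alternatives its adjusted p ran from 0.00455 to 0.741.

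Backbone and tail held no call. MED14 was at 21.4, 21.7 and 21.0 CPM in the controls and 17.2, 15.1 and 17.2 CPM in the knockdowns, all lower, but the test was not passed (-0.37, SE 0.15, adjusted p = 0.138, edgeR), and the sign turned with transcript length offsets (0.10) and on log2(TPM + 1) (0.51). MED23, a tail subunit bound by activators, was at 73.7, 79.7 and 65.7 against 44.1, 64.3 and 50.3 CPM, without overlap (-0.47, SE 0.18, adjusted p = 0.106, edgeR; 0.03 on log2(TPM + 1)). The other tail genes were MED15 (0.15), MED24 (-0.07), MED25 (-0.28) and MED16 (-0.80).

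**Figure D2:**
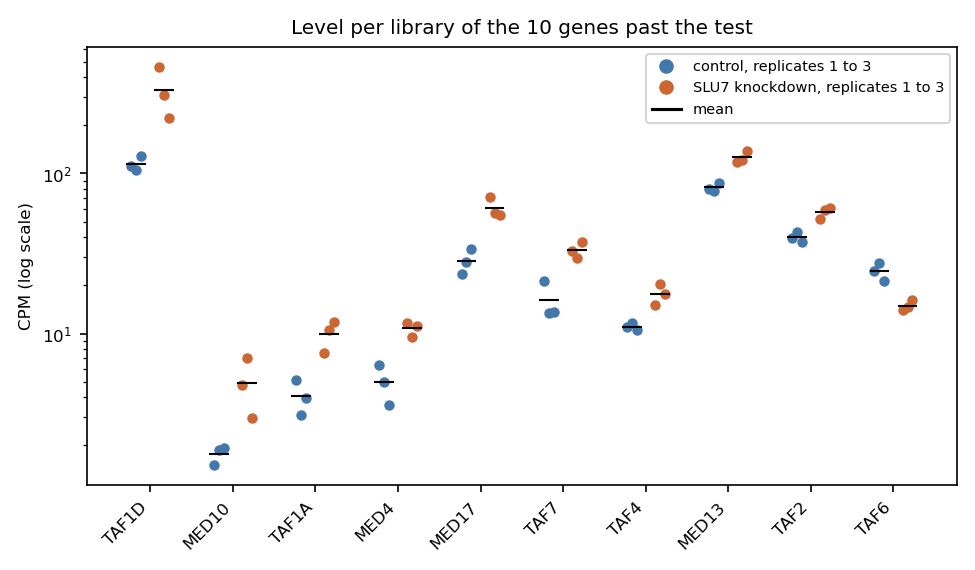
The level in each library, in CPM on a log axis, of the 10 genes past the test, ordered by log2 fold change. Blue points are the 3 control and orange points the 3 knockdown libraries, with black lines for means. No gene overlaps between groups, with TAF6 the one gene lower in the knockdown in counts (0.44 on log2(TPM + 1)).

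Levels of different genes can be compared only per length. In the controls TAF1D led with 47.4, 34.5 and 59.4 TPM, followed by MED13L with 26.9, 26.2 and 35.6 TPM and TAF2 with 24.9, 19.99 and 20.7 TPM. The ranges of MED13L and TAF1D overlapped, while TAF2 stayed below MED13L in every control. TBP was at 8.92, 11.2 and 14.5 TPM, a range that overlapped those of MED12 and TAF10. The tested member with the lowest mean was TAF3 with 0.63, 0.34 and 0.57 TPM, inside the range of MED31.

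The estimated counts of a gene sum over transcripts of several annotated types. Of the 483 member transcripts 237 are annotated protein_coding, 116 retained_intron, 74 processed_transcript and 54 nonsense_mediated_decay, the last holding a stop codon of the kind that triggers decay. In the controls protein_coding transcripts took 67.9%, 67.3% and 68.1% of the members' counts and in the knockdowns 53.7%, 57.4% and 61.9%. Without TAF1D the coding share was 73.8%, 72.8% and 75.0% against 71.0%, 69.4% and 70.1%. Over all coding genes the coding share fell too, from 75.4%, 78.0% and 77.4% to 72.7%, 72.4% and 71.4%. The share of retained-intron transcripts was 17.5%, 19.7% and 18.8% in the controls against 28.4%, 25.0% and 21.3% in the knockdowns, without overlap. Without TAF1D the retained-intron share was 14.1%, 16.02% and 14.5% against 17.0%, 16.7% and 15.8%, which overlap. Over all coding genes it was 10.4%, 9.67% and 10.0% against 13.6%, 13.3% and 13.4%. The nonsense_mediated_decay share of the members was 6.05%, 6.69% and 6.44% against 8.76%, 9.27% and 8.68%, without overlap. Without TAF1D that share was 5.65%, 6.21% and 5.71% against 6.99%, 8.24% and 7.24%, also without overlap. For all coding genes it was 8.42%, 7.27% and 7.32% against 7.58%, 8.09% and 8.59%, which overlap.

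In some of the genes that rose, much of the count lay outside the coding transcripts. In TAF1D the coding share was 3.15%, 2.72% and 3.90% in the controls against 3.51%, 4.94% and 7.46% in the knockdowns, and retained-intron transcripts held 54.6% to 62.6% of its counts in every library. In MED17 coding transcripts held 12.7%, 19.1% and 23.9% in the controls against 9.87%, 13.3% and 23.7% in the knockdowns. In TAF1A the non-coding processed transcript TAF1A-205 had 3.92, 5.55 and 6.37 estimated counts in the controls against 19.5, 23.1 and 25.6 in the knockdowns, while the coding TAF1A-201 had 33.1, 0 and 22.2 against 18.5, 23.7 and 29.5. Coding transcripts held 47.3% to 49.9% of TAF1A counts in the knockdowns and 45.8% to 84.7% in the controls. In TAF7, MED4 and MED13 they held 85.0% or more in every library.

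The same test was therefore run on protein_coding transcripts alone, an alternative added after seeing the data. There 7 of 49 tested members were higher and 1 lower, where 5.26% of all genes were higher and 7.16% lower. TAF1D (2.20), MED10 (2.41), MED4 (1.31), TAF7 (1.17), TAF2 (0.86) and MED13 (0.77) were still called, TAF5L joined them (0.80, adjusted p = 0.0485), and TAF6 was at -0.94 (adjusted p = 0.0293, edgeR). The MED10 call rested on few reads. Its estimated protein_coding counts were 10.3, 3.03 and 3.43 in the controls against 19.9, 26.4 and 13.2 in the knockdowns. Retained-intron transcripts held 14.4% to 78.3% of MED10 counts in the controls. MED17 (0.87, adjusted p = 0.175), TAF1A (0.84, adjusted p = 0.219) and TAF4 (0.38, adjusted p = 0.340, edgeR) were not called. In CPM of protein_coding counts, TAF1D was at 8.97, 7.01 and 12.7 in the controls against 44.6, 41.5 and 45.9 in the knockdowns. The knockdowns lay close together on that measure, unlike in its total. MED17 was at 7.69, 13.3 and 20.5 against 19.4, 20.5 and 36.5 on the same scale, and its groups overlapped.

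**Figure D3:**
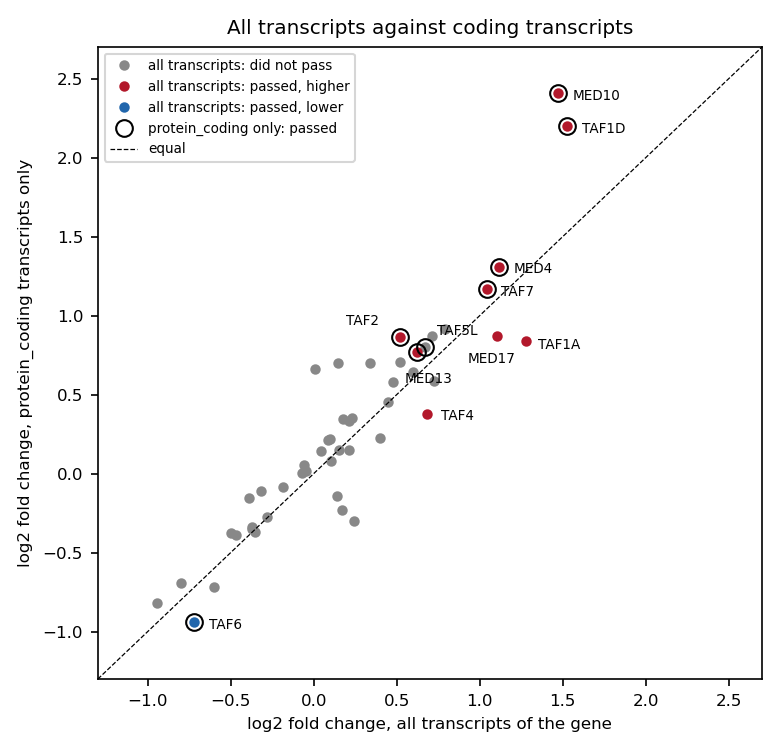
The log2 fold change of each member over all its transcripts (horizontal) against that over its protein_coding transcripts alone (vertical), 49 genes, with the dashed line marking equal values. Ringed points passed the test on coding transcripts. MED17, TAF1A and TAF4 passed over all transcripts but lie below the line and have no ring.

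**Figure D4:**
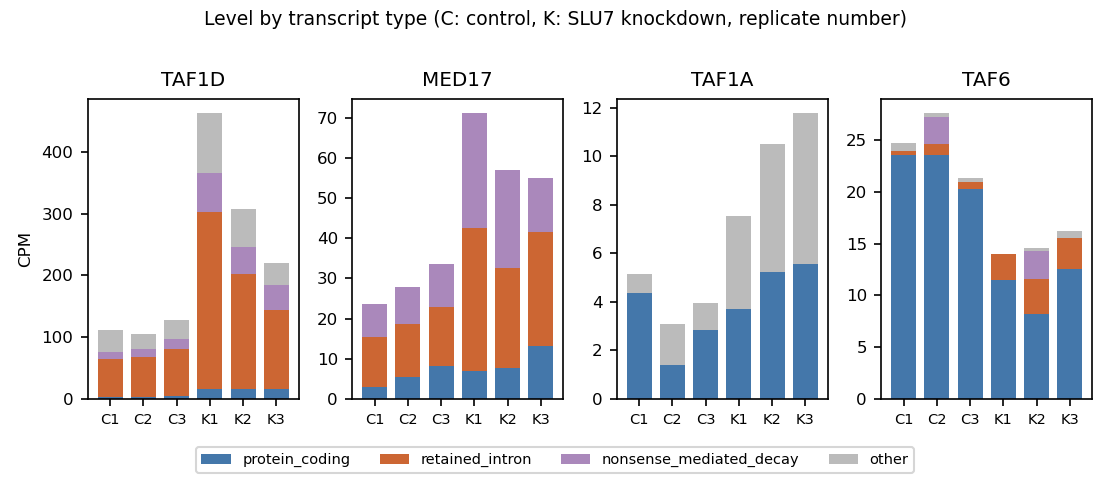
CPM of TAF1D, MED17, TAF1A and TAF6 in each library, stacked by transcript type, with C for control and K for knockdown and the replicate number. Retained-intron transcripts fill most of the TAF1D bars in every library, and coding transcripts most of the TAF6 bars in every library.

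The share of each transcript type within a gene was tested with edgeR's differential usage test, in which 1 of 33 tested members was called, TAF6 (adjusted p = 0.0454), where 1.67% of the 6838 genes tested were called. Retained-intron transcripts were 1.51%, 3.78% and 2.91% of TAF6 counts in the controls against 18.2%, 23.5% and 18.2% in the knockdowns, an exact two-sided permutation p of 0.1, the smallest that 3 against 3 can give. Behind these shares stood 2.97, 7.79 and 4.87 estimated counts in the controls against 16.5, 18.6 and 15.8 in the knockdowns, while protein_coding counts were 187.3, 176.2 and 159.2 against 74.1, 44.5 and 67.2. The call was lost when any 1 library was left out (adjusted p from 0.154 to 0.954), without the 2 libraries that stood apart (0.665) and with no filter on low counts (0.481).

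The retained-intron share was higher in all knockdowns than in all controls in TAF6, TAF1, TAF8 and TAF4, 4 of 23 tested members, where 29.6% of the genes tested showed that pattern. In 1 member, MED28, it was lower in all knockdowns, with 2.86% of genes. In TAF1 it was 0.74%, 4.91% and 3.16% in the controls against 7.11%, 8.71% and 9.69% in the knockdowns, and the usage test did not call it (adjusted p = 0.134, edgeR). TAF8, the partner of TAF10 in TFIID, had 5.07%, 3.33% and 4.08% against 7.37%, 14.8% and 19.3%, and was not called. TAF4 had 31.8%, 39.8% and 38.5% against 50.2%, 62.6% and 50.8%, not called either. In the remaining tested members, MED17, TAF10 and MED13L among them, the groups overlapped, and MED10 spanned 14.4% to 78.3% among its controls.

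**Figure D5:**
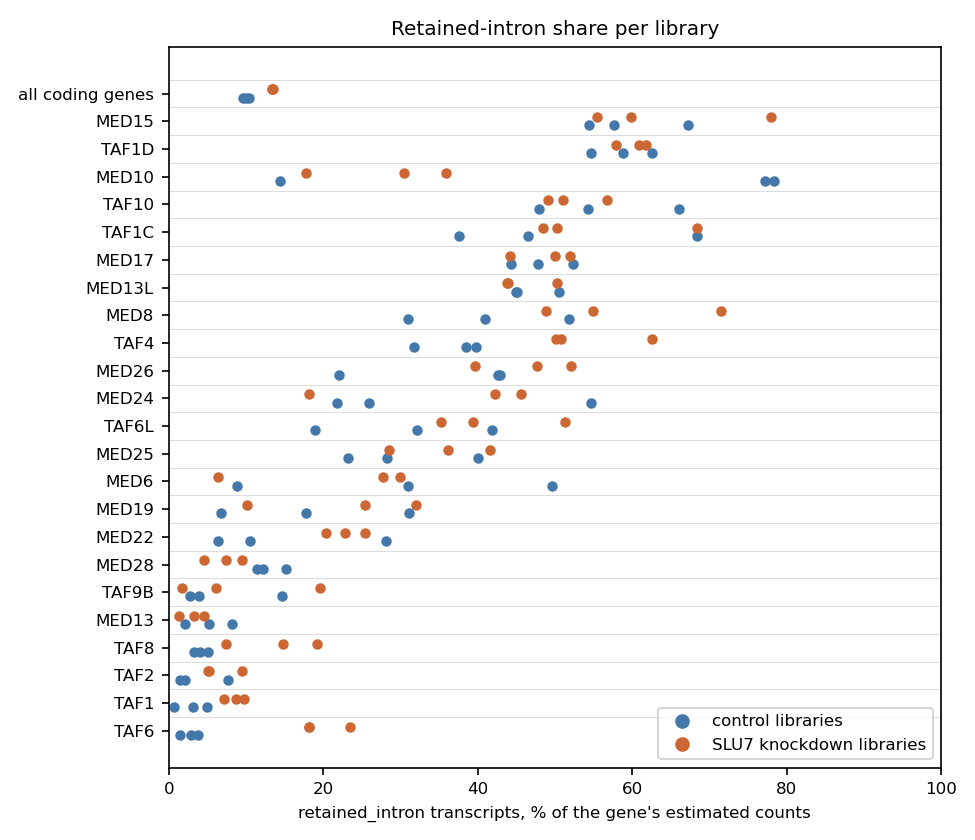
Retained-intron transcripts as a percentage of each gene's estimated counts, with 1 point for each of the 3 control (blue) and 3 knockdown (orange) libraries, for the 23 members tested and for all coding genes summed. In TAF6 the knockdowns lie at 18.2% to 23.5% and the controls at 1.51% to 3.78%, and for all coding genes at 13.3% to 13.6% and 9.67% to 10.4%.

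The introns that these transcripts keep can be read from GENCODE 29 (GRCh38). Whole introns are shown in lower case, each with 15 coding bases of the exon on either side in capitals, because they are what a spliced mRNA of the gene would lack. TAF6-215 keeps intron 4 of the 14 of TAF6-201, the coding transcript with the most counts (210 bases, chr7:100113406-100113615, minus strand), MED17-202 keeps intron 2 of 4 of the short coding MED17-213 (86 bases, chr11:93793865-93793950, plus strand) and TAF10-204 keeps intron 2 of 4 (211 bases, chr11:6611453-6611663, minus strand).
TAF6 intron 4: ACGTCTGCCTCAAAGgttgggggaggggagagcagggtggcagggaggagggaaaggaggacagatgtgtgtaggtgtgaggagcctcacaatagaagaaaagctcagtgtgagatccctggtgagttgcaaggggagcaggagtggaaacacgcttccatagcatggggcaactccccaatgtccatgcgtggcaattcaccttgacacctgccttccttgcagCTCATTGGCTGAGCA
MED17 intron 2: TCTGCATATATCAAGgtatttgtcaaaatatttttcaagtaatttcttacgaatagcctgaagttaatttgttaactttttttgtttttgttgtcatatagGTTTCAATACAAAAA
TAF10 intron 2: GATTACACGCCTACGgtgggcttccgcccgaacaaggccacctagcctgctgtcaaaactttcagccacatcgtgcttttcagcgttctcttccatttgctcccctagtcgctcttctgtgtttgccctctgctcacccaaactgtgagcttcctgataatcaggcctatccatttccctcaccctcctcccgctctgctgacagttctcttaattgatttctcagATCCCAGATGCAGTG

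All have the usual first and last pair of intron bases, and in each 75% of the 20 bases before the last pair are pyrimidines. Their GC content differs, at 56.2% in TAF6, 23.3% in MED17 and 52.1% in TAF10. TAF6-215 had 2.97, 6.34 and 4.87 estimated counts in the controls against 14.5, 12.7 and 7.72 in the knockdowns. MED17-202 had 9.47, 17.0 and 20.9 against 55.2, 40.0 and 20.3. The last knockdown was inside the control range only in counts not scaled to library size. TAF10-204 had lower unscaled counts in the knockdowns, with 20.9, 52.0 and 31.4 against 15.8, 15.5 and 14.2. The knockdown libraries were smaller, so a lower count is not by itself a lower level. None of the 3 passed the transcript test.

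A retained-intron transcript each of TAF1, TAF8 and TAF4 runs from an exon into an intron and ends inside it (TAF4-208 also begins inside intron 6), and the crossing point is shown because it tells such a read from a spliced one. The last 20 exon bases are in capitals and the first 20 intron bases in lower case, for TAF1-216 (intron 6 of 38, its 164 intron bases at chrX:71377822-71377985), TAF8-209 (intron 2 of 8, 267 bases at chr6:42051514-42051780) and TAF4-208 (intron 7 of 14, 2001 bases at chr20:62004509-62006509).
TAF1-216 crossing: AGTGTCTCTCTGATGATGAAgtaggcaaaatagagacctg
TAF8-209 crossing: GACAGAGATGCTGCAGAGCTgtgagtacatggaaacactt
TAF4-208 crossing: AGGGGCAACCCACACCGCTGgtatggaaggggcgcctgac

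TAF1-216 had 0, 18.6 and 11.4 estimated counts in the controls against 33.7, 43.8 and 58.4 in the knockdowns. TAF8-209 had 11.02, 4.72 and 8.39 against 12.5, 19.99 and 28.0, and TAF4-208 had 6, 7.62 and 9.05 against 20.2, 25.3 and 15. In all of them each knockdown was above each control, and none passed the transcript test. TAF8-209 held all retained-intron counts of its gene, while TAF4-202, not shown, held more than TAF4-208 in every library, with 21.2, 26.2 and 19.2 against 26.3, 43.4 and 31.0.

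Single transcripts gave no call. Of 166 member transcripts tested none passed (0% of the 43128 tested, edgeR), and 32 had an unadjusted p under 0.05, 25 higher and 7 lower, where 16.1% of all transcripts did, 3241 higher and 3715 lower. TAF6-209, a coding transcript, was listed at 58.8, 93.8 and 39.5 estimated counts in the controls and at 0 in every knockdown (adjusted p = 0.0994, edgeR), and was called when no filter was used. The coding transcript TAF6-201 had 71.0, 68.0 and 68.7 against 60.3, 22.6 and 30.3. Estimated counts are not scaled to library size and the knockdown libraries were smaller, so these values alone do not show a lower level in each knockdown. A similar listing at 0 held for MED13-202, a retained-intron transcript with 13.6, 31.8 and 30.0 estimated counts in the controls. MED13L was flat as a gene while its full-length coding transcript MED13L-201 (9885 bases) had 181.7, 192.4 and 176.7 against 68.1, 74.5 and 59.1 estimated counts (adjusted p = 0.113, edgeR). The shorter coding MED13L-203 had 399.3, 314.1 and 369.4 against 343.5, 297.4 and 281.2, which are not scaled to the smaller knockdown libraries. In CPM of protein_coding counts, MED13L was at 221.5, 209.2 and 232.1 against 233.3, 262.7 and 236.4. All knockdowns were higher on that scale, and MED13L was not called (0.14, adjusted p = 0.543, edgeR). Among the TAF1D transcripts the retained-intron TAF1D-215 (4358 bases) held the most, with 220.5, 254.9 and 288.3 against 1060, 600.5 and 359.1, and the coding TAF1D-217 had 27.0, 18.3 and 36.0 against 89.6, 82.5 and 88.2. Counts of alternative transcripts that share most of their sequence are estimates whose error the files do not give.

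A pair of members overlaps on the genome. TAF1D and MED17 lie on opposite strands of chromosome 11 and overlap where the annotated spans of both genes start, and both rose. CEP295, which overlaps TAF1D on the other strand, was at 207.3, 109.8 and 152.3 against 254.6, 244.97 and 267.2 CPM and did not pass (0.71). The part of CEP295 in the TAF1D values was not tested. AP001273.2, a coding gene whose exons overlap those of MED17 on the same strand, was at 3.89, 1.34 and 0 against 4.15, 9.95 and 6.91 CPM. It did not pass (1.98), and its part in the MED17 values was not tested. MED12 and TAF1 lie 224 kb apart on X, where one had a log2 fold change of -0.50 (0.40 on log2(TPM + 1)) and the other of 0.60. TAF1D also spans 8 small nucleolar RNAs on its own strand. Of these, SNORA8 was at 15.7, 52.9 and 40.1 CPM in the controls and 20.6, 21.2 and 8.78 CPM in the knockdowns, overlapping (-1.10). SNORA18 (-0.65) and SNORA40 (-0.13) were not called either, and the other 5 were too low to test. A RefSeq start of TAF1D that lies inside its annotated span, away from MED17, faces that of C11orf54 on the other strand. C11orf54 was at 27.9, 33.4 and 35.9 against 32.9, 29.9 and 24.3 CPM and did not pass (-0.16). The 176 bases between the starts in RefSeq (GRCh38.p14, chr11:93741496-93741671) are shown on the minus strand because 1 gene of the pair was called and the other was not, with ATGGCG (bases 68 to 73) and CCGGAA (bases 112 to 117) in capitals.
TAF1D and C11orf54: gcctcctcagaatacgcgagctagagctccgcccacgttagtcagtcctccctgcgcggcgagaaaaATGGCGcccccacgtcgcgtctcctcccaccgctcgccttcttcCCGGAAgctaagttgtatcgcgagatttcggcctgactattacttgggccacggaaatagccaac

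Short motifs, none of which contains another, were searched on both strands in the 250 bases before each RefSeq start, with 52 windows for 43 of the member genes and 35116 windows in all. CCGGAA, the core bound by ETS factors, was in 36.5% of member windows and 14.5% of all windows. ATGGCG, a core bound by YY1, was in 15.4% and 6.496%, CCAAT in 42.3% and 32.0% and CACGTG in 11.5% and 6.34%. TATAAA was in 3.85% of member windows, those of MED16 and MED7, and in 10.7% of all windows. A match is only a run of letters, and no binding was measured.

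GC content moved with the fold change, in the members as over the genome. Across the 51 tested members the log2 fold change was correlated with the GC content of the transcripts (Spearman -0.35, Pearson -0.39), and across 16694 tested genes with a value it was -0.37 (Spearman). These genes share the libraries and are not independent. The 9 members called higher had a median GC content of 44.4%, the 41 not called 50.2%, and TAF6 59.1%. With offsets for GC content and length 8 members were called higher and none lower (22 had an unadjusted p under 0.05), where 5.23% of all genes were higher and 5.7% lower: MED17, TAF1D, TAF7, TAF1A, MED4 and TAF4 kept their calls, and MED22 and MED26 were new. MED10 (1.29, adjusted p = 0.0612), MED13 (0.50, adjusted p = 0.0565), TAF2 (0.39, adjusted p = 0.114) and TAF6 (-0.39, adjusted p = 0.147, edgeR) no longer passed, against 1.47, 0.62, 0.52 and -0.72 without offsets. What part GC content has in the other results was not tested. In exon number of the main coding transcript the members showed a Spearman correlation of -0.17 with the fold change.

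The neighbours of TFIID and Mediator on the promoter were read from lists of the other initiation factors, 41 genes in all. Of these 2 rose and none fell, no larger a share than the 5.93% of all genes called higher, and the median log2 fold change was 0.22. Both belong to TFIIH, the factor that opens promoter DNA. ERCC3, its DNA translocase, was at 27.6, 22.4 and 25.9 CPM in the controls and 62.0, 61.7 and 74.4 CPM in the knockdowns (1.38, SE 0.16, adjusted p = 0.00786, edgeR), and GTF2H1 was at 28.3, 21.8 and 24.3 against 49.5, 47.4 and 37.0 CPM (0.85, SE 0.18, adjusted p = 0.0194, edgeR). Of the 7 genes of TFIIA, TFIIB, TFIIE and TFIIF, the 7 of TBP regulators and TFIIIB, the 14 other SAGA genes and the 3 kinase module partners (CDK8, CDK19 and CCNC), none passed, with medians of 0.35, 0.10, 0.18 and 0.15. Leaving out control replicate 1 and knockdown replicate 3 gave 14 higher and 3 lower of the 41, where 14.1% of all genes were higher and 15.7% lower.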

How the data were processed

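PolyA RNA from a TRIzol extraction went into ScriptSeq mRNA-Seq libraries, per the labels' protocols. FastQC 0.11.8, Trimmomatic 0.38, kallisto 0.46.1, sleuth 0.30.0 and GRCh38 are named, with no order, per the submitters' processing notes. The estimated counts and the TPM values per transcript were made by the authors, per the file headers, and reads were split between transcripts, so counts of similar transcripts are uncertain. The effective transcript lengths are also the authors'. The sources used here give neither annotation release nor strand setting. Overlapping genes on opposite strands, such as TAF1D with MED17, TAF6 with AP4M1 and CNPY4, TAF1A with TAF1A-AS1 and MED4 with MED4-AS1, therefore cannot be told apart. Nor can genes whose exons overlap on the same strand, such as TAF9 with AK6, MED17 with AP001273.2 and MED26 with AC008764.1.

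Estimated counts were summed per gene, or per gene and transcript type, and rounded, after 159 pseudoautosomal Y records were added to X. Genes, transcripts and types were tested with edgeR 4.0.16 (TMM, filterByExpr with a count of 10 and 15 in total, quasi-likelihood, Benjamini-Hochberg at 0.05; types with diffSpliceDGE and Simes) over 6 libraries, checked on simulated data. CPM use TMM library sizes. The GC content and length offsets and the fit on protein_coding transcripts alone were chosen after seeing the data. Alternatives used limma 3.58.1 and DESeq2 1.42.0. Transcript positions and introns came from GENCODE 29, in which 430 of the 483 member transcripts had a transcript of the same length. The members and lists were chosen with earlier results of these data known. The rule named in full every member past a test, and TBP, TAF1, TAF4, TAF10, MED1, MED12, MED14, MED17, MED23 and MED26.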

Additional observations from a re-analysis of the deposited data

How the results depend on the processing

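Of member genes 9 were called higher and 1 lower with all libraries. With each library left out in turn the higher count ran from 0 to 12, the lower from 0 to 3, the count over all genes (2371 with all libraries) from 0 to 4457, and members with called type usage from 0 to 0. Without the 2 libraries that stood apart 4 members were lower, 5248 genes passed and 0 members had called usage. The replicate numbers did not pair the libraries (same-number correlations of -0.41, 0.11 and -0.37). With the number as a replicate block, 0 members were higher, 0 lower and 0 of all genes passed, although 18 members had an unadjusted p under 0.05, and 0 members had called usage. With transcript length offsets 4 members were higher, 0 lower and 968 genes passed. With GC content and length offsets, chosen after seeing the data, 0 members were lower. On log2(TPM + 1) 15 were higher and 0 lower by limma. With protein_coding transcripts only 1429 genes passed. With no filter 0 members had called usage and 1 member transcript passed. RLE size factors, the stricter filter and removal of structural RNA kept all 10 calls, and no filter and DESeq2 kept 8. TAF6 was at 0.44 on log2(TPM + 1), where TBP was at 0.017, MED12 at 0.40, MED14 at 0.51 and MED23 at 0.026. MED14 was at 0.099 with length offsets. TAF10 was at -0.016 with no filter, -0.12 without the 2 libraries, -0.47 with length offsets and -0.014 by DESeq2, and with each library left out it ran from -0.094 to 0.13, below 0 without control replicate 1 (-0.094), control replicate 3 (-0.036) or knockdown replicate 3 (-0.026). By TPM the difference in retained-intron share was 32.5 points in TAF6 (17.2 by counts), 27.3 in TAF1 and 16.6 in TAF8. The causes were not tested. Depth limits the scarce members, of which MED10, MED31 and MED30 had few reads.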
